A study of Homo sapiens with 12 samples.

Results

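The transcripts of the mitochondrial ribosomal proteins were examined in Huh7, a human hepatocellular carcinoma cell line, after treatment with Molidustat (25 µM), an inhibitor of the HIF prolyl hydroxylases. The genes are all those annotated as protein_coding whose symbol starts with MRPL, for the large ribosomal subunit, or MRPS, for the small one. They number 78 of 19962 protein_coding genes and of 60666 genes listed in all, with 49 MRPL and 29 MRPS symbols. The rule reads symbols, not levels.

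The 4 groups were wild-type Huh7 cultures given DMSO alone for 24 h, Molidustat for 24 h, DMSO alone for 48 h or Molidustat for 48 h, with 3 replicates each and thus 12 libraries. All groups received the solvent, and no gene was altered. Sequencing reads came from the 3′ ends of polyadenylated transcripts, so levels are given in CPM, counts scaled to a common library size (per 1e6 counts), which were not divided by gene length. Counts on genes ranged from 1499273 to 9179389 per library, and counts on the 78 genes from 5614 to 104996. Huh7 is a single line, so the spread between replicates says nothing about other hepatoma cells, and the labels do not settle whether replicates were separate cultures or separate RNA extractions.

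The liver identity of the cells was clear in every library. AFP, the fetal serum protein made by many hepatomas, lay between 3908 and 10323 CPM, and ALB, which encodes albumin, between 1264 and 5157 CPM. Markers of other cell types were at or near 0. The 3 markers of T cells (CD3E, CD2 and PTPRC) summed to at most 3.15 CPM in any library and those of endothelial cells (VWF, CDH5 and PECAM1) to at most 6.45 CPM, and CD3E and VWF had no count in any of the 12 libraries. The 3 of fibroblasts summed to 0.620 to 8.08 CPM, with COL1A2 the most abundant, and were higher in each Molidustat 48 h library (4.72 to 8.08 CPM) than in DMSO 48 h (2.13 to 4.24 CPM). The 3 of macrophages summed to 2.13 to 14.7 CPM, with CSF1R at 0 throughout, and lay at 9.66, 10.3 and 14.7 CPM in Molidustat 48 h against 4.88, 2.13 and 4.96 CPM in DMSO 48 h. CD14 made up 7.42, 9.01 and 10.3 CPM of the former, and CD68 had the highest median over the 12 libraries. The 9 hepatocyte and hepatoma markers summed to 12023, 12773 and 14770 CPM in DMSO 24 h and to 16941, 16961 and 20504 CPM in Molidustat 24 h. Their sum, in which AFP was the most abundant, was also higher in each treated library at 48 h. Single markers did not all follow the sum. With all 12 libraries, 8 of the 9 rose at 24 h and 7 at 48 h. HNF4A fell at both times (-0.24, then -1.88 on the log2 scale), and APOB fell at 48 h (-0.46). Leaving out DMSO 48 h replicate 2 changed the 48 h values to -0.05 for HNF4A and -0.67 for APOB. Whether these differences bear on the levels below was not tested. BNIP3, a direct HIF target, lay between 103 and 207 CPM in DMSO libraries and between 975 and 1232 CPM in Molidustat libraries, so that treated and untreated libraries were separated at both times.

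The library of DMSO 48 h replicate 2 stood apart and bears on each comparison that uses this group. It held 1499273 counts on genes, the lowest total, and reads outside any annotated gene made up 50.4% of those listed, whereas the remaining 11 libraries had 17.1 to 25.6%. The 78 genes took 0.374% of its counts, against 0.868 to 1.29% elsewhere, and 50 of the 78 had their lowest CPM there. For all genes tested, that share was 29.99%. The comparisons that use it, and the single genes that moved much with it, are therefore given with and without this library.

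Mitochondria hold their own ribosome, which is made of RNAs encoded in the mitochondrial genome and proteins that are encoded in the nucleus, translated in the cytosol and imported. It translates the few respiratory chain proteins that the mitochondrial genome encodes, and its nuclear genes are known targets of the ETS factor GABPA (NRF-2), of NRF1 and of YY1. Some of its proteins have a counterpart in bacterial ribosomes, and others are found in mitochondria only. The naming is partly historical. MRPS30 and MRPS18A encode proteins that structures place in the large subunit, and MRPS36 encodes a component of the 2-oxoglutarate dehydrogenase complex.

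The promoters of these genes are shown first, because shared promoter letters are a feature that the rule by symbol does not use. RefSeq promoters (GRCh38.p14, 250 bases before to 50 bases after the start) were held for 69 of the 78 genes. CCGGAAG, the core read by ETS factors such as GABPA, was present on either strand in 30 of these 69 (43.5%), against 23.1% of the tested genes with a promoter and 12.2% of all 27305 genes in the table. AAGATGGCG, the longer form bound by YY1, was present in 13 (18.8%), against 4.85% of tested genes and 2.14% of all. GCGCATGCG, of NRF1, was present in 3 (4.35%), against 4.45% and 2.34%. ACGTG, the core of HIF response elements, was present in 24 (34.8%), against 32.8% and 24.9%. The last letters of CCGGAAG are the first of AAGATGGCG, so these matches can overlap and are not separate observations, and a match is a description of letters only. The 60 bases around the RefSeq start (30 before and 30 after) are printed for the 4 members that gave the smallest unadjusted p among the lower ones at 24 h and for MRPL53, which gave the smallest among the higher ones at 48 h. Capitals mark CCGGAAG or AAGATGGCG on either strand.
MRPS30, chr5:44808917-44808976, plus strand: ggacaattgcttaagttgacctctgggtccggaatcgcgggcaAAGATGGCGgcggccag
MRPL1, chr4:77862800-77862859, plus strand: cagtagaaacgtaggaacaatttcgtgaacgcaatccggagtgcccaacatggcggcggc
MRPS25, chr3:15065286-15065345, minus strand: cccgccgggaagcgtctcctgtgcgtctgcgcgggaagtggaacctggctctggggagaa
MRPS27, chr5:72320211-72320270, minus strand: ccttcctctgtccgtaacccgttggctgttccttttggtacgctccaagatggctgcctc
MRPL53, chr2:74472651-74472710, minus strand: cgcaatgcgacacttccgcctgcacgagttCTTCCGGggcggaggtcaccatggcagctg
MRPS30 carried the YY1 letters from base 14 of its transcribed sequence, whereas the windows of MRPL1, MRPS25 and MRPS27 held neither string. At 24 h, the 13 members with the YY1 letters had a median log2 fold change of -0.26 and the 56 without had -0.27. The 30 members with the ETS letters had -0.22 and the 39 without had -0.31, and the 24 with the HIF core had -0.22 and the 45 without had -0.28. At 48 h the medians were 0.12 with and -0.06 without the ETS letters, and 0.24 with and -0.02 without the HIF core. For the YY1 letters they were 0.03 with and 0.06 without. Leaving out DMSO 48 h replicate 2 gave -0.01 and -0.30 for the ETS letters and 0.04 and -0.22 for the HIF core. It gave -0.20 and -0.16 for the YY1 letters. These splits were not tested.

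All 78 genes passed the filter on low counts and were tested. Mean levels ran from 18.9 to 532 CPM with a median of 102 CPM. In the large subunit, MRPL11, which sits at the stalk base, was the most abundant at 532 CPM, followed by MRPL42, a protein with no bacterial counterpart, at 462 CPM. MRPL23 was the lowest of all 78 at 18.9 CPM. In the small subunit, MRPS7, the counterpart of bacterial uS7, led at 238 CPM, followed by MRPS34 at 211 CPM, and MRPS27 was the lowest at 23.6 CPM. These are levels of 3′ end reads, whose yield may also differ between genes.

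At 24 h, the question was whether the transcripts of the mitochondrial ribosome differed between Molidustat and DMSO. Most members lay slightly lower with Molidustat, but no member passed the test. The summed level of the 78 genes was 11273, 12211 and 11948 CPM in the DMSO libraries and 10364, 8639 and 10285 CPM in the Molidustat libraries. All 3 treated libraries thus lay below all 3 controls, by the means 11811 ± 484 against 9763 ± 974 CPM (SD, n = 3 each). The log2 fold change was negative for 63 of 78 members, against 48.5% of all genes tested, and its median was -0.27, against 0.02 over all genes. The members ranged from -0.96 to 0.58. In bulk RNA, fewer transcripts per cell and fewer cells that make them cannot be told apart.

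No member was called in edgeR's quasi-likelihood test (a call needs a Benjamini-Hochberg adjusted p below 0.05 with the log2 fold change past 1 in size), against 33 of 14274 genes or 0.231%, all of them higher. The smallest edgeR adjusted p among members was 0.872. It was 0.162 (MRPS30) without DMSO 48 h replicate 2, which enters this comparison through the shared fit only. With all 12 libraries, 4 members were lower and 0 higher at an unadjusted p under 0.05, where 1.52% of all genes were lower and 3.73% higher. The libraries of the treatments did not overlap for 9 members, all lower with Molidustat, where 5.02% of all genes were lower and 7.26% higher in this way. For 24 of the 78, the 95% interval of the log2 fold change lay wholly within 1 on either side of 0. For the other 54, the fit of all 12 libraries left room for a doubling or a halving. Without DMSO 48 h replicate 2, the interval lay within 1 on either side of 0 for 54 of the 78.

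**Figure D1:**
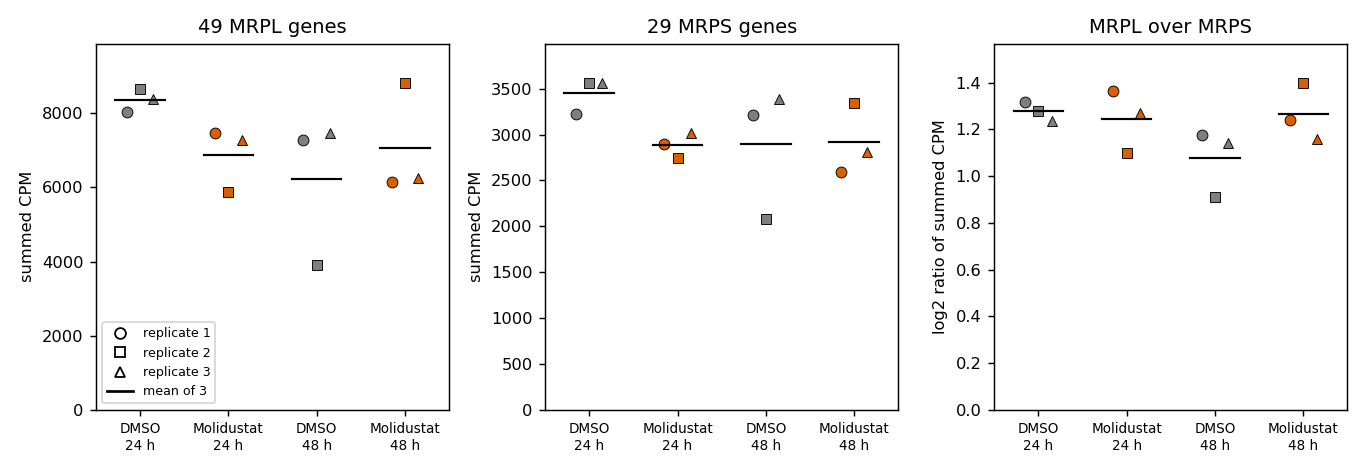
Summed CPM of the 49 MRPL genes (left), of the 29 MRPS genes (middle) and the log2 ratio of these sums (right) in the 12 libraries, with the mean of each group of 3 as a bar. At 24 h all Molidustat libraries lie below all DMSO libraries in both sums, DMSO 48 h replicate 2 is the lowest point of each panel, and the ratio lies between 0.91 and 1.40 in every library.

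The large and the small subunit lay lower alike at 24 h. The 49 MRPL genes summed to 8362 ± 303 CPM with DMSO and 6875 ± 859 CPM with Molidustat, and the 29 MRPS genes to 3449 ± 193 and 2888 ± 134 CPM (SD, n = 3 each). In both sums the 3 treated libraries lay below the 3 controls. The median log2 fold change was -0.26 for MRPL genes, of which 40 of 49 were negative, and -0.29 for MRPS genes, of which 23 of 29 were negative. The log2 ratio of the sums was 1.32, 1.28 and 1.24 in the DMSO libraries and 1.37, 1.10 and 1.27 in the Molidustat libraries, so the ratios overlapped. Proteins shared with bacteria and proteins particular to mitochondria differed little, with medians of -0.27 (30 genes) and -0.23 (19 genes) in the large subunit and of -0.28 (16 genes) and -0.30 (10 genes) in the small one.

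MRPS30 (ENSG00000112996, chromosome 5, 44808947 to 44820428 on the plus strand of GRCh38) encodes a protein now assigned to the large subunit, despite its symbol. It was at 212, 257 and 187 CPM in DMSO 24 h and at 138, 90.8 and 140 CPM in Molidustat 24 h, from 385 to 924 counts per library. The treated libraries were all lower and did not overlap the controls. The log2 fold change was -0.83 (SE 0.34, 95% interval -1.56 to -0.10), with an adjusted p of 0.872 in edgeR. In the fit without DMSO 48 h replicate 2 it was -0.82 (SE 0.23, edgeR adjusted p = 0.162).

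MRPL1, one of the rRNA-binding proteins of the large subunit stalk region, was at 115, 103 and 103 CPM with DMSO and at 49.8, 61.1 and 59.99 CPM with Molidustat at 24 h. The groups were well apart, and the log2 fold change was -0.91 (SE 0.38, edgeR adjusted p = 0.872). MRPS25, a small subunit protein particular to mitochondria, was at 137, 213 and 166 CPM against 106, 45.5 and 115 CPM. All treated libraries were lower, replicate 2 by far the most, and the log2 fold change was -0.96 (SE 0.40, edgeR adjusted p = 0.872). MRPS27, a pentatricopeptide repeat protein of the small subunit, was at 21.8, 42.8 and 23.5 CPM against 17.9, 16.6 and 15.2 CPM, a log2 fold change of -0.82 (SE 0.37, edgeR adjusted p = 0.925). Its DMSO replicate 2 stood well above the other controls, which were nearer to the treated libraries. NR2C2 overlaps MRPS25 and PTCD2 overlaps MRPS27 on the opposite strand, and the strand setting of the counting is not stated, so a share of their counts may belong to these neighbours.

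Of the members with the smallest unadjusted p among the higher ones at 24 h, MRPL44 and MRPS2 rested on 1 library. MRPL44, an RNase III-like protein of the large subunit, was at 38.6, 43.9 and 34.9 CPM with DMSO and at 27.96, 98.1 and 35.4 CPM with Molidustat, so that only replicate 2 was above the controls. MRPS2, the counterpart of bacterial uS2, was at 61.5, 54.7 and 43.6 CPM against 35.1, 133 and 42.7 CPM, with the same replicate above and the other 2 below every control. MRPL43 and MRPL52, both proteins of the large subunit without a bacterial counterpart, had log2 fold changes of 0.58 (SE 0.51) and 0.39 (SE 0.61) with overlapping groups.

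**Figure D2:**
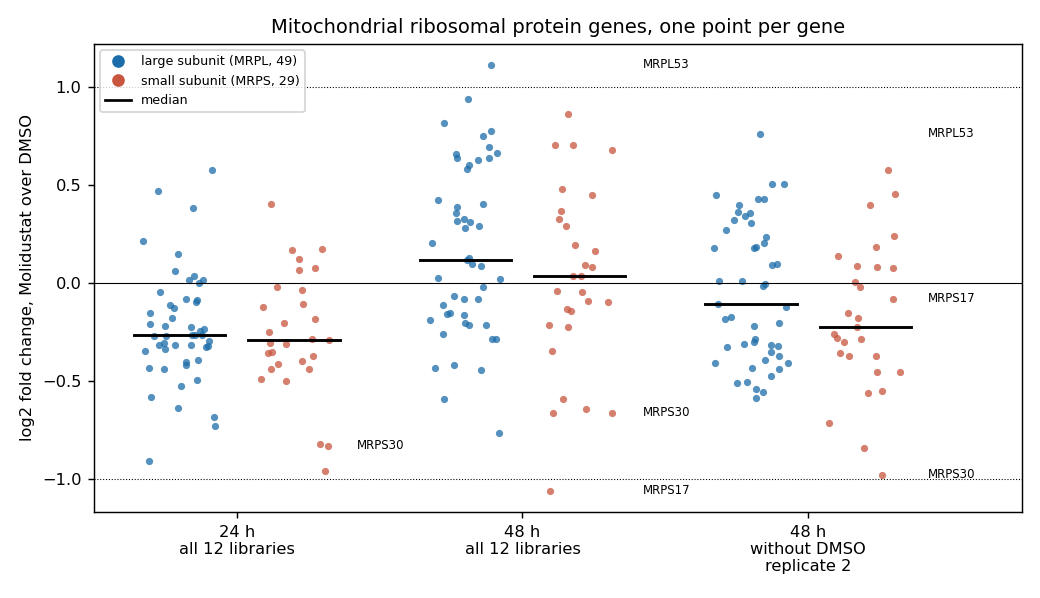
Log2 fold change of Molidustat over DMSO for each of the 78 genes at 24 h, at 48 h with all 12 libraries and at 48 h without DMSO replicate 2, with the median of each subunit as a bar and dotted lines at 1 and -1. The points lie mostly below 0 at 24 h, straddle 0 at 48 h with all libraries, and move down when the library is left out.

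At 48 h, the same comparison depended on DMSO 48 h replicate 2. With all 12 libraries, 34 of 78 members had a negative log2 fold change, against 49.6% of all genes, and the median was 0.09, against 0.01 over all genes. Without that library, 46 of 78 were negative, against 49.1% of all genes, and the median was -0.16, against 0.01. The median thus changed sign with 1 library. It was also -0.02 without Molidustat 48 h replicate 2. The summed level was 10500, 5977 and 10850 CPM in the DMSO libraries and 8738, 12158 and 9071 CPM in the Molidustat libraries, so the groups overlapped with or without DMSO replicate 2.

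No member was called at 48 h, against 33 of 14274 genes or 0.231%, of which 30 were higher and 3 lower. The smallest edgeR adjusted p among members was 0.345. At an unadjusted p under 0.05, 2 members were higher and 1 lower, against 4.53% and 8.81% of all genes. The groups did not overlap for 1 member that was higher and 4 that were lower, against 9.96% and 8.02% of all genes. Without DMSO replicate 2, again no member was called, against 53 of 15253 genes or 0.347%. The Molidustat libraries then lay below both remaining controls for 21 of the 78 members, against 15% of all genes, and an unadjusted p under 0.05 was reached by 4 lower members, against 2.92%. At 24 h, the fit without this library called no member either, against 0.761% of all genes, and placed 7 at an unadjusted p under 0.05 in the lower direction, against 2.85%.

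MRPS30 was the member with the smallest p at 48 h once this library was left out. It was at 217, 88.4 and 204 CPM in DMSO 48 h and at 111, 106 and 108 CPM in Molidustat 48 h, with 83 counts behind the 88.4 CPM of DMSO replicate 2. The other 2 controls were well above all 3 treated libraries, while DMSO replicate 2 was below them. The log2 fold change at 48 h was -0.66 with all libraries (SE 0.34, edgeR adjusted p = 0.437) and -0.98 without DMSO replicate 2 (SE 0.25, 95% interval -1.51 to -0.44, edgeR adjusted p = 0.159).

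Other tools passed MRPS30 on the adjusted p alone, and never on the fold threshold. DESeq2 without DMSO 48 h replicate 2 gave MRPS30 an adjusted p of 0.0267 at 24 h (log2 fold change -0.84) and of 0.0318 at 48 h (log2 fold change -0.93). With all 12 libraries, DESeq2 gave MRPS30 adjusted p of 0.466 and 0.323. The limma-voom fit with sample quality weights, on all 12 libraries, gave MRPS30 0.394 at 24 h and 0.0411 at 48 h. MRPS30 was the single member with an adjusted p under 0.05 in any of the fits run, and its log2 fold change was negative at both times in each of them.

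Other members also pointed down at 48 h. MRPS27 was at 36.7, 21.3 and 30.7 CPM with DMSO and at 19.3, 16.3 and 21.0 CPM with Molidustat, at -0.66 on the log2 scale (edgeR adjusted p = 0.479) and -0.84 without DMSO replicate 2. It was the single member whose treated libraries were below all controls at both times, a pattern that 0.813% of all tested genes showed. MRPS31, a small subunit protein with 4 pseudogenes that took counts equal to 4.54% of its own, was at 71.0, 66.0 and 99.3 CPM against 54.6, 56.6 and 46.4 CPM, which gave -0.59 on the log2 scale (SE 0.29, edgeR adjusted p = 0.399), and -0.71 without DMSO replicate 2 (SE 0.28, edgeR adjusted p = 0.610). MRPS16, the counterpart of bacterial bS16, was at 142, 273 and 135 CPM against 116, 122 and 111 CPM, and its log2 fold change moved from -0.64 to -0.26 without DMSO replicate 2.

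MRPS17 shows how much 1 library could weigh. This counterpart of bacterial uS17 was at 79.4, 335 and 85.7 CPM with DMSO 48 h and at 68.5, 109 and 59.6 CPM with Molidustat 48 h. The value of 335 CPM, in DMSO replicate 2, was more than 2 times any other of the 12 libraries. The log2 fold change was -1.06 (SE 0.47, edgeR adjusted p = 0.345) with this library and -0.08 (SE 0.30) without it. MRPS17 overlaps NIPSNAP2 on the same strand. MRPL52 moved as much, with 82.0 CPM in that library against 9.65 to 52.1 CPM elsewhere, and its log2 fold change at 48 h went from -0.76 to 0.21.

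Among the members that pointed up at 48 h, the same library was low. MRPL53, a large subunit protein particular to mitochondria, was at 22.9, 6.39 and 27.5 CPM with DMSO and at 25.6, 74.6 and 30.6 CPM with Molidustat. MRPL34, the counterpart of bacterial bL34, was at 116, 22.4 and 112 CPM against 115, 210 and 164 CPM. For both, DMSO replicate 2 was the lowest and Molidustat replicate 2 the highest of the 6 libraries. Their log2 fold changes were 1.11 (SE 0.52) and 0.94 (SE 0.44), with edgeR adjusted p of 0.368 and 0.373, and were 0.76 and 0.51 without DMSO replicate 2 and 0.48 and 0.70 without Molidustat replicate 2. MRPL17, at 85.8, 36.2 and 93.8 CPM against 100, 179 and 108 CPM, was the single member with all treated libraries above all controls, with 0.82 on the log2 scale (SE 0.39, edgeR adjusted p = 0.381), or 0.51 without DMSO replicate 2 and 0.49 without Molidustat replicate 2. MRPL55 followed with 0.69 (SE 0.38), or 0.36 and 0.35 without these libraries.

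**Figure D3:**
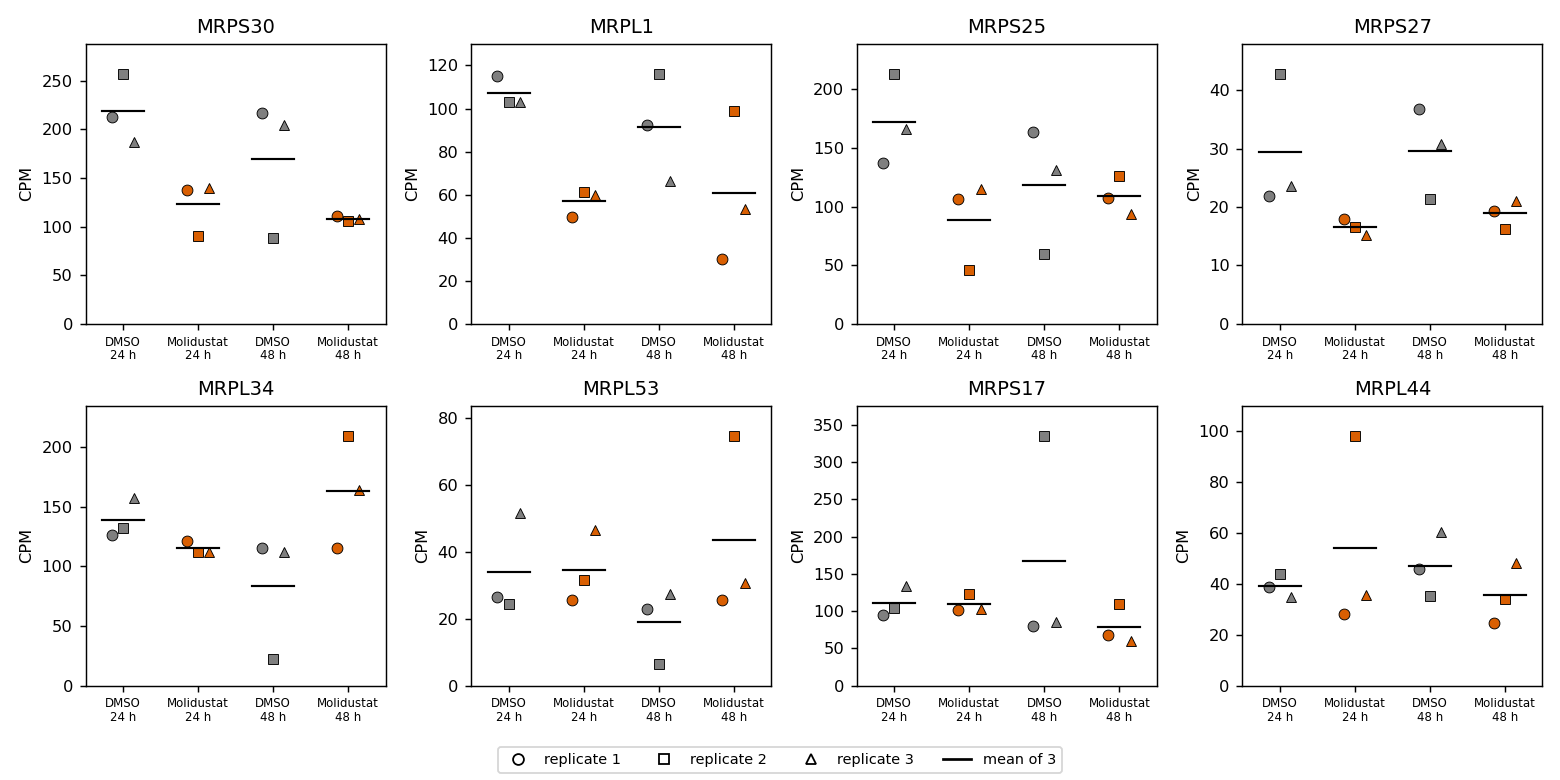
CPM of 8 members in the 12 libraries, grouped by treatment and time, with replicates as separate symbols and the group mean as a bar. MRPS30, MRPL1, MRPS25 and MRPS27 lie lower with Molidustat at 24 h, and DMSO 48 h replicate 2 (grey square) is far below the other controls for MRPL34 and MRPL53 and far above them for MRPS17.

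The balance of the subunits at 48 h moved with this library when taken from summed CPM, and not when taken from mean log2 levels. The log2 ratio of the MRPL to the MRPS sum was 1.178, 0.911 and 1.142 in DMSO 48 h and 1.24, 1.40 and 1.16 in Molidustat 48 h. The difference between the group means was 0.19, and 0.12 without Molidustat replicate 2. It was 0.11 without DMSO replicate 2, where the remaining controls were at 1.16 ± 0.026 (SD, n = 2) and the treated libraries at 1.27 ± 0.12 (SD, n = 3). The treated range reached down to between the remaining controls. Counting MRPS30 and MRPS18A with the large subunit gave a difference of 0.15 with all libraries and 0.064 without DMSO replicate 2. Taken as the difference of mean log2(CPM + 1) between the subunits, in which each gene weighs the same, the balance was 0.108, 0.080 and 0.101 in DMSO 48 h and 0.158, 0.342 and 0.142 in Molidustat 48 h, so all treated libraries were higher. The difference of the means was 0.12 with all libraries, 0.11 without DMSO replicate 2 and 0.054 without Molidustat replicate 2, so the last of these libraries carried much of it. The median log2 fold change was 0.12 for MRPL and 0.04 for MRPS genes with all libraries, and -0.11 and -0.22 without DMSO replicate 2.

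Members chosen for their roles, other than MRPS30, gave overlapping libraries in both comparisons. MRPL12, the stalk protein that also binds the mitochondrial RNA polymerase, was at 121 ± 29.3 CPM with DMSO and 90.8 ± 23.2 CPM with Molidustat at 24 h (SD, n = 3 each), and at 89.9 ± 26.0 and 81.8 ± 17.6 CPM at 48 h. MRPL45, near the exit of the nascent chain and the inner membrane, was at 146 ± 21.8 and 147 ± 50.9 CPM at 24 h, and at 143 ± 102 and 138 ± 20.1 CPM at 48 h. MRPL58, a peptidyl-tRNA hydrolase built into the large subunit, was at 57.8 ± 14.0 and 50.4 ± 20.4 CPM, and at 43.5 ± 9.61 and 39.3 ± 8.07 CPM. Treated and control libraries overlapped for each of these 3 at both times, for MRPL45 at 48 h through DMSO replicate 2 alone (215, 25.6 and 187 against 161, 122 and 132 CPM). Without DMSO 48 h replicate 2, the 48 h log2 fold change was -0.37 for MRPL12, -0.55 for MRPL45 and -0.30 for MRPL58.

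Libraries overlapped likewise in the small subunit. MRPS12, of the decoding centre, was at 112 ± 17.5 and 87.5 ± 16.5 CPM at 24 h, and at 73.9 ± 34.6 and 80.2 ± 9.75 CPM at 48 h (SD, n = 3 each). Its 48 h log2 fold change was 0.10 with all libraries and -0.22 without DMSO replicate 2. Among the paralogues of bacterial bS18, MRPS18A, which belongs to the large subunit, was at 135 ± 6.26 and 147 ± 42.5 CPM at 24 h and at 128 ± 19.1 and 147 ± 3.76 CPM at 48 h. MRPS18B was at 93.0 ± 10.7 and 75.3 ± 19.3 CPM, then at 103 ± 54.0 and 94.3 ± 12.3 CPM. MRPS18C was at 103 ± 26.2 and 78.5 ± 33.4 CPM, then at 62.5 ± 6.81 and 70.4 ± 41.7 CPM, and its 3 pseudogenes took counts equal to 8.68% of its own. The libraries of the treatments overlapped for all 3 paralogues, and the 48 h log2 fold change went from 0.20 to 0.08 for MRPS18A and from -0.14 to -0.45 for MRPS18B without DMSO replicate 2. MRPS36 was at 53.9 ± 22.9 and 47.6 ± 8.72 CPM at 24 h, and at 28.5 ± 12.3 and 47.3 ± 19.3 CPM at 48 h, where its log2 fold change was 0.68 with all libraries, 0.40 without DMSO replicate 2 and 0.31 without Molidustat replicate 2.

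Between 24 h and 48 h in DMSO alone, which shares its libraries with the comparisons above, no member was called, against 1 gene or 0.00701% of all. A negative log2 fold change was found for 65 of 78 members, against 48.4% of all genes, with a median of -0.35 against 0.02. Without DMSO 48 h replicate 2 the count was 45, against 47.6%, and the median -0.05. The libraries of the 2 times did not overlap for 16 members, all lower at 48 h, where 884 of 14274 genes were lower and 821 higher. Without DMSO 48 h replicate 2, 18 members were lower and 5 higher in this way, against 1447 and 2045 of 15253 genes. With all libraries there was 1 member at an unadjusted p under 0.05, against 8.14% of all genes. This was MRPL57, a small protein of the large subunit, which went from 127, 168 and 262 CPM to 97.6, 72.4 and 127 CPM, a log2 fold change of -0.90 (SE 0.42), or -0.71 without that library. MRPS36 was next at -0.87 (SE 0.42), or -0.59 without it. MRPS16 and MRPS31 gave the smallest p among those higher at 48 h, at 0.51 (SE 0.34) and 0.44 (SE 0.29). Without DMSO 48 h replicate 2 these were 0.14 for MRPS16 and 0.57 for MRPS31.

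Between 24 h and 48 h in Molidustat, 0 of 14274 genes (0%) and thus no member was called, and 37 of 78 members were negative, against 50.3% of all genes, with a median of 0.01. No member had an unadjusted p under 0.05, against 4.58% of all genes. MRPL49 and MRPL23 gave the smallest p among the higher ones, at 0.89 (SE 0.56) and 0.67 (SE 0.51). MRPL44 and MRPL15 gave those among the lower ones, at -0.60 (SE 0.44) and -0.47 (SE 0.45). Without DMSO 48 h replicate 2, which enters this comparison through the shared estimate of the spread, MRPL49 kept 0.89 with an SE of 0.32 and was the single member at an unadjusted p under 0.05, against 9.24% of all genes (edgeR adjusted p = 0.403).

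The difference between the 48 h and the 24 h response to Molidustat was tested as an interaction. It called 0 of 14274 genes (0%), and no member had an unadjusted p under 0.05, against 6.78% of all genes. Its median over members was 0.36 with all libraries and 0.11 without DMSO 48 h replicate 2, so the 2 times were not shown to differ. MRPL34 and MRPS21, the counterpart of bacterial bS21, gave the smallest p, at 1.21 (SE 0.62) and 1.01 (SE 0.55), and these fell to 0.76 and 0.75 without the library. Across the 2 times, 27 members were lower in both with all libraries and 39 without DMSO 48 h replicate 2, which is 34.6% and 50% of the members. Among all genes tested the shares were 26.0% and 27.9%.

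**Figure D4:**
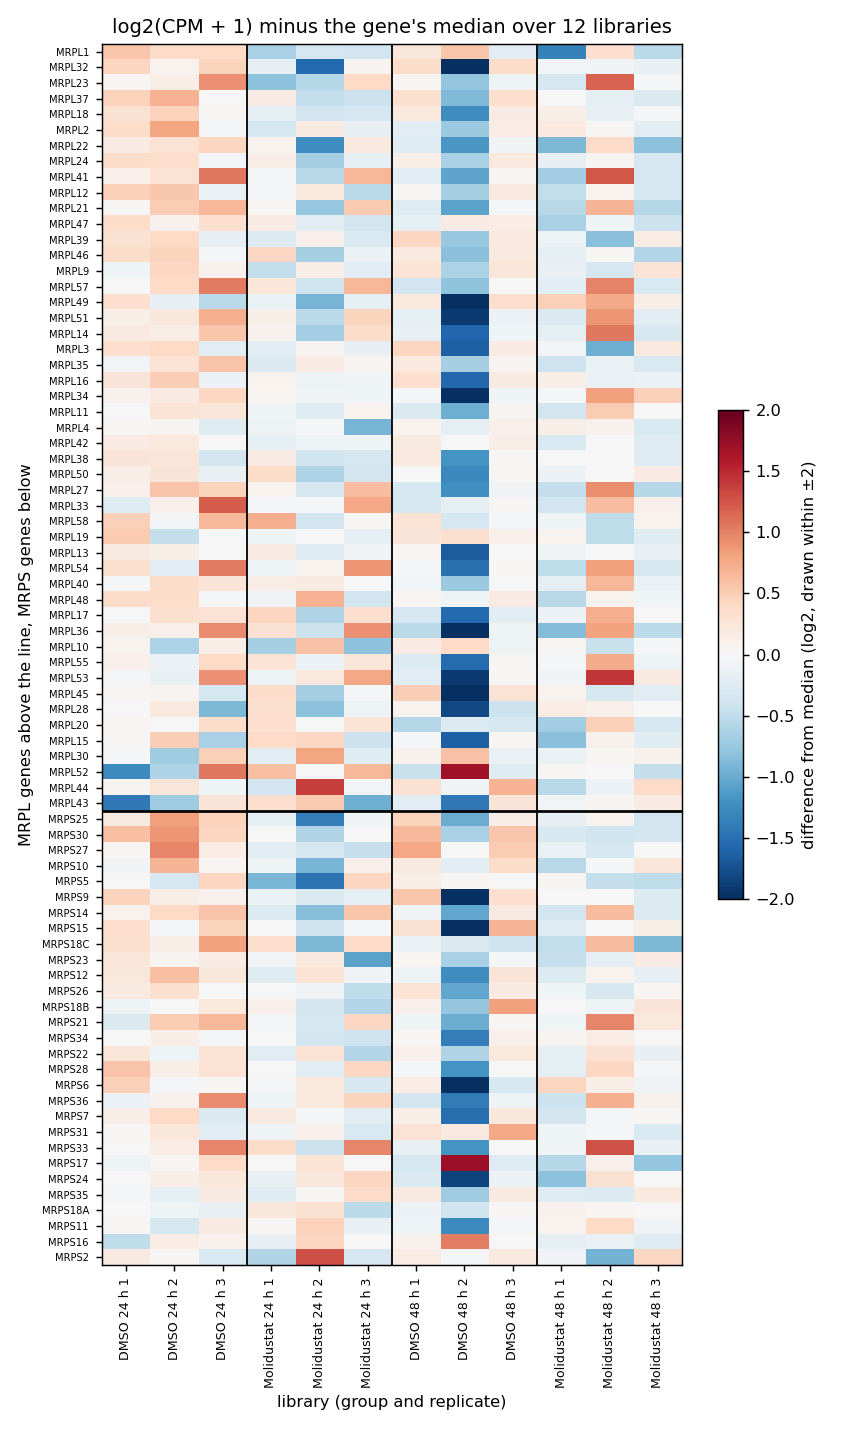
Log2(CPM + 1) of each of the 78 genes (rows, MRPL above the line and MRPS below, each ordered by log2 fold change at 24 h) in the 12 libraries (columns) relative to the gene's median, with colours drawn within 2 on either side of 0. The column of DMSO 48 h replicate 2 is low for most genes and high for MRPS17, MRPL52 and MRPS16, and a set of rows is high together in DMSO 24 h replicate 3 and Molidustat 48 h replicate 2.

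Some members varied together between libraries in a way that did not follow treatment or time. These were picked after their values were seen. MRPL57 was at 262, 201 and 255 CPM in DMSO 24 h replicate 3, Molidustat 24 h replicate 3 and Molidustat 48 h replicate 2, and at 72.4 to 168 CPM in the other 9 libraries. MRPL53 was at 51.4, 46.5 and 74.6 CPM in the same 3 libraries and at 6.39 to 31.4 CPM in the others. MRPS36 was at 80.1, 56.1 and 68.2 CPM against 14.9 to 47.8 CPM. The same 3 libraries had the highest summed levels of the nuclear-encoded respiratory chain subunits, 20730, 18596 and 25361 CPM against 8765 to 16475 CPM. The share of counts on the mitochondrial genome was 3.80, 3.61 and 3.59% in them, against 0.969 to 3.73% in the others, so DMSO 48 h replicate 3 was as high without the pattern. Its source was not tested.

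The other genes of mitochondrial translation also gave no calls, but their differences were not all small. Their medians were not tested against those of the members. Of the 5 mitoribosomal proteins with other symbols, none was called. DAP3, a GTP-binding protein of the small subunit, was the one with the smallest p at 24 h, at -0.69 on the log2 scale (SE 0.27, edgeR adjusted p = 0.804), and its treated libraries lay below the controls at both times. PTCD3, a pentatricopeptide repeat protein of the small subunit, had -1.32 at 48 h (SE 0.45, edgeR adjusted p = 0.230), and -0.41 without DMSO replicate 2. Its treated libraries also lay below the controls at both times, a pattern that 0.813% of all tested genes showed. None of 29 assembly factors was called, with medians of -0.23 at 24 h and of -0.20 and -0.15 at 48 h with and without DMSO replicate 2. FASTKD2, which binds the large subunit rRNA, gave the smallest p at both times, at -0.78 (SE 0.31) and -0.62 (SE 0.31). Its treated libraries were below the controls at both times as well.

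None of 16 translation factors was called, with medians of -0.07, -0.12 and -0.35 in the same order. MTIF3, an initiation factor, gave the smallest p at 24 h, at 0.62 (SE 0.32). LRPPRC, which stabilises mitochondrial mRNAs, gave it at 48 h, at -3.20 (SE 0.94, edgeR adjusted p = 0.203), but this came from 2755 CPM in DMSO replicate 2 against 53.97 to 250 CPM in the other 11 libraries, and the value without it was -0.47. None of the 21 genes that charge mitochondrial tRNAs was called, and 12 were negative at 24 h, 19 at 48 h and 20 at 48 h without DMSO replicate 2, with medians of -0.14, -0.40 and -0.49. MTFMT, which formylates the initiator methionyl-tRNA, gave the smallest p at 48 h, at -0.96 (SE 0.32, edgeR adjusted p = 0.230), or -0.63 without DMSO replicate 2. None of the 5 genes of mitochondrial transcription was called, and all 5 were negative at 24 h with a median of -0.44, led by the polymerase POLRMT at -0.51 (SE 0.35). At 48 h 2 were negative with a median of 0.03, and all 5 without DMSO replicate 2 with a median of -0.17. TFB2M, its initiation factor, gave the smallest p at 48 h, at -0.60 (SE 0.43).

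The factors known to drive these nuclear genes ranged from near 0 to moderate levels. None of 9 was called. All 9 had a negative log2 fold change at 48 h, against 49.6% of all genes. Without DMSO replicate 2 it was 8 of them, against 49.1%. PPARGC1A (-0.13 at 48 h, SE 1.41) and PPARGC1B (-2.72, SE 1.39) had medians of only 1.67 and 2.21 CPM over the 12 libraries. They had no count in 3 and 2 libraries. MYC, an activator of mitochondrial biogenesis genes, was at -1.75 at 48 h (SE 0.39, edgeR adjusted p = 0.0982) and at -1.77 without that library (SE 0.39, edgeR adjusted p = 0.0664). ESRRA, an orphan nuclear receptor that acts with PGC-1 coactivators, was at -1.35 at 24 h (SE 0.54, edgeR adjusted p = 0.823). YY1 was at 0.02 at 24 h and -0.34 at 48 h, and GABPA at 0.16 and -0.28, where the 48 h values without DMSO replicate 2 were -0.24 and -0.48. NRF1 was at 0.23 at 24 h (SE 0.76) and at -1.34 at 48 h (SE 0.78), or -0.60 without that library (SE 0.76). GABPB1, the partner of GABPA, was at -0.73 at 48 h and -0.75 without it, and PPRC1, a PGC-1 related coactivator, at -1.40 (edgeR adjusted p = 0.224) and -1.57 (edgeR adjusted p = 0.310).

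The RNAs that the mitochondrial ribosome is built on and translates were not called either. The 2 mitochondrial rRNAs had log2 fold changes of -0.22 (MT-RNR1, SE 0.52) and 0.35 (MT-RNR2, SE 0.70) at 24 h. At 48 h these were 0.54 and 0.78, or 0.04 and 0.29 without DMSO replicate 2. MT-RNR2 was at 3398, 1929 and 13694 CPM in the Molidustat 24 h libraries. Reads came from the 3′ ends of polyadenylated transcripts, so these counts may not measure the amount of rRNA. The 13 mitochondrial mRNAs had medians of -0.30 at 24 h, with 12 negative, and of 0.25 and -0.02 at 48 h with and without DMSO replicate 2. MT-ATP6, an ATP synthase subunit, gave the smallest p at 24 h, at -0.96 (SE 0.41, edgeR adjusted p = 0.872). It was at 3320, 4348 and 10482 CPM with DMSO and at 2991, 3190 and 3127 CPM with Molidustat, so that DMSO replicate 3 was more than 2 times any other library. MT-ATP8, of the same enzyme, gave it at 48 h, at -1.41 (SE 0.49, edgeR adjusted p = 0.233) with all libraries and -0.70 without DMSO replicate 2.

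Set beside the other large protein families, the 78 genes had the lower median at 24 h, and the medians were not tested against each other. The 76 tested cytosolic ribosomal protein genes had medians of -0.10 at 24 h, with 47 negative, and of 0.20 and 0.17 at 48 h with and without DMSO replicate 2. RPL4 gave the smallest p at 24 h, at -0.59 (SE 0.30), and RPL9 at 48 h, at -1.47 (SE 0.50), or -0.40 without DMSO replicate 2. The 82 tested nuclear-encoded respiratory chain subunits had -0.12 at 24 h, with 63 negative, and 0.64 and 0.39 at 48 h. SDHB of complex II gave the smallest p at 24 h, at -0.55 (SE 0.36), and NDUFB11 of complex I at 48 h, at 1.18 (SE 0.42, edgeR adjusted p = 0.239). At 48 h without DMSO replicate 2, the mitochondrial ribosomal proteins (-0.16) thus had the opposite sign to both. No member of either family was called at either time. As a check of the treatment on the same scale, 5 of 9 tested HIF targets were called at 24 h and 2 at 48 h, all higher, with medians of 2.48 and 1.65. Without DMSO 48 h replicate 2, LDHA was also called at 48 h (1.55, edgeR adjusted p = 0.0120) and NDRG1 at 24 h (2.52, edgeR adjusted p = 0.0265). PDK1 at 48 h went from 1.64 to 2.47 without that library and was not called.

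**Figure D5:**
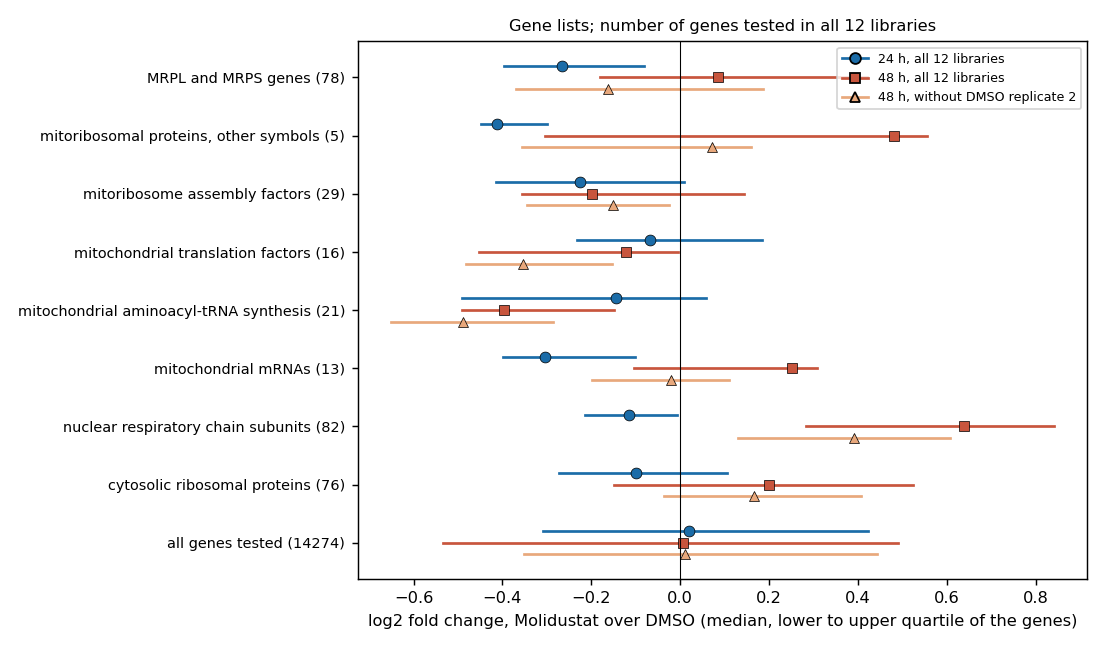
Median log2 fold change of Molidustat over DMSO (symbol) with the lower to upper quartile of the genes (line) for the mitochondrial ribosomal protein genes, related lists and the whole set of tested genes, at 24 h and 48 h, the latter with and without DMSO replicate 2. The 78 genes sit at -0.27, 0.09 and -0.16, and the nuclear respiratory chain subunits at -0.12, 0.64 and 0.39.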

How the data were processed

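RNA-seq was measured in 12 Huh7 libraries (QIAseq UPX 3′ kit, NextSeq 500). The files the authors deposited hold raw read counts for each gene. The submitters' processing notes name bcl2fastq 2.17.1.14, cutadapt 1.9.1, STAR 2.7.9a, HTSeq 0.11.2 and DESeq2 1.26.0 and the build GRCh38. The annotation release, strand setting and use of molecular identifiers are not given in the sources used here. Symbols and coordinates came from GENCODE release 44 for 60437 of 60666 genes. The 5 summary lines stayed out of library sizes and tests, and 0 columns were left out. Pseudogenes of the members held counts equal to 0.148% of theirs.

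The tests used edgeR 4.0.16 (R 4.3.3): filterByExpr (minimum count 10, minimum total 15, 14274 genes kept), TMM factors, and 1 quasi-likelihood fit of the 12 libraries by group, with p-values adjusted over all genes by the Benjamini-Hochberg method. A call is an adjusted p under 0.05 with a log2 fold change beyond 1, the thresholds of the study. Standard errors came from the fold change and the F statistic. The study's methods call the replicates biological, while the labels speak of RNA extractions, so p-values measure the spread between these libraries, which may be technical. CPM used the same TMM factors. Alternatives were RLE factors, total counts, other filters, DESeq2 1.42.0, limma-voom (limma 3.58.1) with sample quality weights, separate fits, a replicate block, thinning to 1499273 counts and leaving out each library. The fits were tested on simulated counts.

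Named are members called, those with the smallest p in each comparison and direction, the most and least abundant of each subunit, those moved most by leaving out DMSO 48 h replicate 2, and 10 chosen by role. Of other lists, the gene with the smallest p is named, and factor genes for comparison. A result that this rule would name is not reported here. The members and lists were chosen with earlier results of these data known. Figures were drawn with matplotlib 3.10.9 in Python 3.11.15.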

Additional observations from a re-analysis of the deposited data

How the results depend on the processing

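The number of members called was 0 in all 5 comparisons under every alternative run, and separate fits of each comparison were not run for the interaction. The adjusted p alone, with no fold threshold, passed 1 member (MRPS30) in DESeq2 without DMSO 48 h replicate 2 at both times and in limma-voom at 48 h, and 0 in edgeR. Of the left-out libraries, DMSO 48 h replicate 2 moved the medians most in the 3 comparisons that use its group, Molidustat 24 h replicate 2 at 24 h, and Molidustat 48 h replicate 2 between the times in Molidustat. For Molidustat against DMSO at 48 h the median of 0.09 became -0.12 in DESeq2 without that library and -0.15 in limma-voom with sample quality weights, and ranged from -0.16 to 0.31 when each library was left out. For 48 h against 24 h in DMSO, -0.35 became -0.10, -0.16 and, with total counts, -0.45, and ranged from -0.55 to -0.053. For the interaction, 0.36 became 0.17, 0.13 and 0.47, and ranged from 0.11 to 0.52. For 48 h against 24 h in Molidustat it ranged from -0.16 to 0.035. With total counts the median of all genes was itself -0.13 for the DMSO time comparison, 0.16 for the interaction and 0.13 for Molidustat at 48 h. The 24 h median of -0.27 ranged from -0.28 to -0.18 over left-out libraries, with the value nearest 0 without Molidustat 24 h replicate 2. Of 1402 refitted values of the 32 named members, 74 changed sign, 69 of them for values smaller than their own standard error. The other 5 were MRPL52 at 48 h (-0.76), which became 0.25 in DESeq2 without DMSO 48 h replicate 2 and 0.065 in limma-voom and ranged from -1.10 to 0.21 over left-out libraries, MRPL44 at 24 h (0.47), which ranged from -0.30 (without Molidustat 24 h replicate 2) to 0.77, and MRPL23 at 48 h (0.63), which ranged from -0.0095 (without Molidustat 48 h replicate 2) to 0.91. The subunit ratio of summed CPM at 48 h (0.19) ranged from 0.11 to 0.24 over left-out libraries and was 0.12 from mean log2 levels, moves within the spread between replicates. Scaling factors cancel in a ratio within 1 library and were no test of it. After the data were seen, left-out libraries were also combined with the other forms of the ratio. After the data were seen, limma-voom and the block were also run with DMSO 48 h replicate 2 left out. The 48 h median was then -0.20 and -0.21, the DMSO time median -0.070 and -0.062, and the interaction median 0.062 and 0.094, and limma-voom gave MRPS30 an adjusted p of 0.00762 at 48 h. No pairing of the libraries by replicate number was seen, though 3 libraries per group cannot exclude it. Deviations of same-numbered libraries correlated from -0.09 to 0.14, and the replicate block called 0 members and gave medians of -0.29 at 24 h and 0.14 at 48 h. The median count per member was 56.5 in DMSO 48 h replicate 2 against 243.5 to 1086 elsewhere, and 5 members had under 10 counts in some library, which limits the precision of its values.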
